A study of Mus musculus with 6 samples.

Results

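Each productive rearrangement of the mouse T-cell receptor beta locus was assigned by the deposited files to a diversity (D) segment. The call was Trbd1 (D1), Trbd2 (D2) or unknown, and the last class is named unresolved here. All rearrangements called D1 or D2 were taken as members, 3541 of 4409 listed, and they held 5703 of 7043 templates, 81.0%. A template is 1 unit of the deposited whole-number count. D1 held 3240 templates (46.0%), D2 held 2463 (35.0%) and unresolved D held 1340 (19.0%).

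The samples were genomic DNA of splenic T follicular regulatory cells, the Foxp3-expressing CD4 T cells that enter B-cell follicles, from 3 mice of genotype Foxp3GFP. Each mouse gave a sample titled superior and one titled inferior, and the labels explain these words no further. All 6 samples share tissue, genotype and cell type, the sources used here give no age or treatment, and none is an untreated control of another cell type. Templates per sample ranged from 667 to 1855, and a DNA assay of the receptor holds no marker genes, so the sorted cell type could not be checked. Sampling error at this depth is given as 95% Wilson intervals. For a count of 0, the limit given is instead 3 counts of the total. Both cover counting error only.

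The locus has a pair of D-J-C cassettes in tandem. Trbd1 lies upstream of the TRBJ1 cluster, and Trbd2 lies between the TRBJ1 and TRBJ2 clusters. A D segment joins a J segment by deleting the DNA between them, so Trbd1 can reach either cluster, and Trbd2 reaches only TRBJ2 in this way. A V segment is joined afterwards, and nibbling and untemplated bases at both joints can leave few D bases in the third complementarity-determining region (CDR3), the loop that contacts peptide. D segments are rich in G, and they encode glycine in every reading frame.

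In the RefSeq gene table of GRCm38.p6, the assembly of mm10, Trbd1 is a D segment of 12 bases on chromosome 6, from 41533201 to 41533212. Trbd2 is a D segment of 14 bases from 41542163 to 41542176. Between them lie Trbj1-1, which starts at 41533864, to Trbj1-7, which ends at 41535687. Trbj2-1 starts at 41542754 and Trbj2-7 ends at 41543856.

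D is called from a short stretch of CDR3 bases, so these bases of the most abundant rearrangements of each class are shown from the cysteine codon on, as far as the deposited sequence runs. Capitals mark the 6-base stretch ACAGGG or ACTGGG where there is one, and otherwise the first of the longest runs of G. These stretches are described with the results on TRBJ1 below.
D1 with TRBJ1, TRBV13-1 TRBJ1-5: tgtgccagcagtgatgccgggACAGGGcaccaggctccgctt
D1 with TRBJ1, TRBV31 TRBJ1-4: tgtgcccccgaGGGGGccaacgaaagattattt
D1 with TRBJ2, TRBV16 TRBJ2-7: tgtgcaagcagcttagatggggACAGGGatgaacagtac
D2 with TRBJ2, TRBV2 TRBJ2-7: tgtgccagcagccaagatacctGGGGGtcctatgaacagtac
D2 with TRBJ2, TRBV2 TRBJ2-7: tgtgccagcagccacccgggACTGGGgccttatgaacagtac
D2 with TRBJ1, TRBV19 TRBJ1-2: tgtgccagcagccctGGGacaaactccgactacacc
D2 with TRBJ1, TRBV13-2 TRBJ1-3: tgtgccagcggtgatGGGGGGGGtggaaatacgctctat
Unresolved, TRBV4 TRBJ2-2: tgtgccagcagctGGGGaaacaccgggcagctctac
Unresolved, TRBV2 TRBJ1-4: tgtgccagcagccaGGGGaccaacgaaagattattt

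Of the D1 rearrangements with TRBJ1, that of TRBV31 had 6 templates in the superior sample of mouse 3 and 8 in its inferior sample, and that of TRBV13-1 had 10 in the inferior sample of mouse 3. The D1 rearrangement of TRBV16 with TRBJ2-7 had 18 templates, 5 in the superior sample of mouse 1 and 13 in its inferior sample. The most abundant rearrangement of any class was D2, that of TRBV2 with TRBJ2-7 and a run of 5 G, with 10 templates in the superior sample of mouse 2 and 35 in its inferior sample. The TRBV2 rearrangement that holds ACTGGG had 14. The most abundant D2 rearrangement with TRBJ1, that of TRBV19, had only 5 templates, all in the superior sample of mouse 2, and that of TRBV13-2 had 4. Unresolved rearrangements were led by TRBV4 with TRBJ2-2, with 15 templates, and the printed one of TRBV2 had 10.

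D2 was found almost entirely with TRBJ2, and D1 with both clusters. Of D2 templates, 94.98% ± 0.899 (SD, n = 3 mice, both samples of a mouse pooled) were joined to TRBJ2, against 52.5% ± 3.45 of D1 and 58.2% ± 1.45 of unresolved templates. D2 made up 58.5% ± 2.07 of the resolved templates in TRBJ2 and 7.85% ± 2.66 in TRBJ1 (n = 3 mice each). The difference was 51.3, 49.4 and 51.2 percentage points in mice 1, 2 and 3, a mean of 50.6 ± 1.07. It was many times the spread between mice, although a two-sided exact sign-flip permutation test over 3 mice cannot go below p = 0.25, the value obtained. The sources used here do not say whether the J segment entered the D call, so a part of this difference that comes from the caller was not tested.

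Within TRBJ2, the D2 share of the superior samples of mice 1, 2 and 3 was 65.9% (95% interval 61.1 to 70.4), 56.2% (52.4 to 60.0) and 56.5% (52.6 to 60.3). The inferior samples had 56.8% (53.4 to 60.2), 63.5% (59.4 to 67.5) and 55.8% (52.7 to 58.9). Highest were mouse 1 among superior and mouse 2 among inferior samples, and the groups overlapped. Within TRBJ1, the D2 share was 8.93% (5.49 to 14.2), 13.3% (9.53 to 18.3) and 4.56% (2.63 to 7.80) in the superior samples. It was 8.21% (5.54 to 12.02), 6.64% (3.99 to 10.8) and 5.11% (3.54 to 7.34) in the inferior samples. The superior sample of mouse 2 was the highest, and no TRBJ1 value came near any TRBJ2 value.

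**Figure D1:**
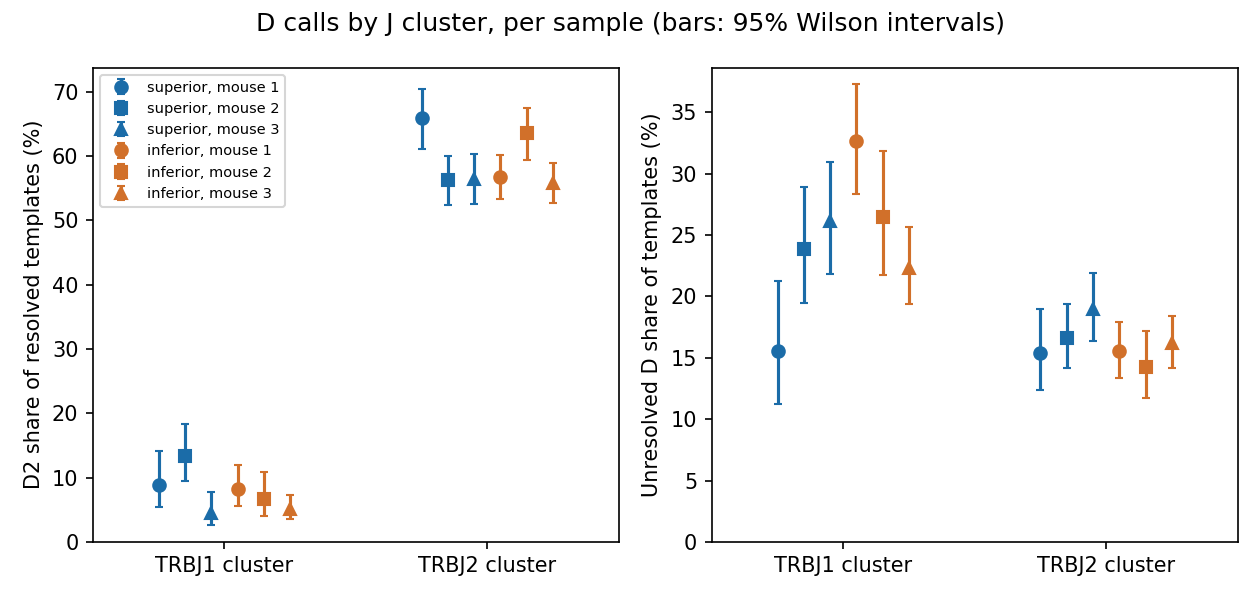
D2 share of resolved templates (left) and unresolved share of all templates (right), in percent, in the TRBJ1 and TRBJ2 clusters; each point is 1 sample, coloured by group and shaped by mouse, with its 95% Wilson interval. D2 was at 4.56% to 13.3% in TRBJ1 and at 55.8% to 65.9% in TRBJ2.

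The 122 D2 templates joined to TRBJ1 were compared in sequence with those joined to TRBJ2. For this the 6-base stretch most frequent in each class of deposited calls was taken from the CDR3 bases, among stretches found with at least 10 V and 5 J segments and in at most 1 rearrangement of the other class. The D1 stretch was ACAGGG, found in 792 of 1871 distinct D1 rearrangements and 1 of 1518 D2 rearrangements. The D2 stretch was ACTGGG, found in 776 of 1518 D2 and 0 of 1871 D1 rearrangements. They differ by the substitution A3T, D1 base first and D2 base last, counted from 1 at the 5′ end of the stretch. Only the strand given in the files was searched. Because the stretches were picked with the calls, and each was required to be nearly absent from the other class, their frequencies are descriptions and no independent reading of D. The D2 stretch was picked from a class that was mostly TRBJ2, 1439 of 1518 rearrangements.

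ACTGGG occurred in 776 of 1439 distinct D2 rearrangements with TRBJ2, 53.9%, and in 0 of 79 with TRBJ1, which allows up to 3.80%. ACAGGG occurred in 43.5% of D1 rearrangements with TRBJ1 and in 41.1% of those with TRBJ2. Within TRBJ2, ACTGGG was in 1238 of the 1938 templates that held either stretch, 63.9% (95% interval 61.7 to 66.0), with 63.3%, 68.2% and 61.7% in mice 1, 2 and 3. Either stretch was present in 40.5% of TRBJ2 templates, so most carried neither. No such share is given for TRBJ1, since most of its resolved rearrangements were called D1, the class from which ACTGGG had to be absent.

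D2 calls with either cluster held longer runs of G than D1 calls. The longest run of D2 rearrangements with TRBJ1 had a median of 5 bases, against 6 for D2 with TRBJ2 and 3 for D1 with either cluster. A run of 6 or more was found in 37 of 79 distinct D2 rearrangements with TRBJ1, 46.8%, and in 796 of 1439 with TRBJ2, 55.3%. For D1 it was found in 33 of 949 with TRBJ1, 3.48%, and in 21 of 922 with TRBJ2, 2.28%. Unresolved rearrangements held it in 20 of 310 with TRBJ1, 6.45%, and in 31 of 498 with TRBJ2, 6.22%. The printed D2 rearrangement of TRBV13-2 with TRBJ1-3 is such a case, with a run of 8, whereas that of TRBV19 holds a run of 3. The sources used here do not give the rule by which such remnants were scored. D is called from these same bases, so the runs of G are descriptions and no independent reading of D.

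The TRBJ segments within a cluster differed less from each other than the clusters did. In locus order, the D2 share was 9.35% ± 1.81 for TRBJ1-1, 10.6% ± 7.90 for TRBJ1-2, 5.25% ± 6.29 for TRBJ1-3, 4.87% ± 2.21 for TRBJ1-4, 7.80% ± 0.484 for TRBJ1-5 and 11.0% ± 11.4 for TRBJ1-6 (SD, n = 3 mice each). Within TRBJ1, neighbours along the locus overlapped over mice except TRBJ1-4 and TRBJ1-5. Pooled per mouse, TRBJ1-4 was the lower in 3 of 3 mice, at 2.33%, 6.0% and 6.29% against 8.22%, 7.27% and 7.92%. This order came from the superior samples, where TRBJ1-4 had 0%, 5.45% and 0%, and TRBJ1-5 had 10.7% or more. It was reversed in each inferior sample, at 4.26%, 6.67% and 9.65% for TRBJ1-4 against 3.77%, 3.23% and 6.85%. Both segments had few D2 templates, 19 for TRBJ1-4 and 18 for TRBJ1-5. Among the values per mouse, the 24.2% of TRBJ1-6 in mouse 2 and 18.2% of TRBJ1-2 in mouse 2 were the highest of TRBJ1. In the TRBJ2 cluster the share was 62.0% ± 3.14 for TRBJ2-1, 49.4% ± 3.98 for TRBJ2-2, 59.4% ± 9.02 for TRBJ2-3, 57.8% ± 6.30 for TRBJ2-4, 66.3% ± 9.58 for TRBJ2-5 and 57.0% ± 0.648 for TRBJ2-7.

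Ordered by level, TRBJ2-5 was followed by TRBJ2-1, TRBJ2-3, TRBJ2-4, TRBJ2-7 and TRBJ2-2, and neighbours from TRBJ2-5 to TRBJ2-7 overlapped over mice. With samples pooled per mouse, TRBJ2-2 stood lowest, at 49.2%, 53.4% and 45.5% in mice 1, 2 and 3. Only in mouse 2 was another segment, TRBJ2-4 with 51.5%, below it. The low rank came from the inferior samples, where TRBJ2-2 was lowest in each mouse, at 41.3%, 47.1% and 42.9%. In the superior samples it had 70.6%, 62.2% and 49.2%, above the 62.2%, 48.1% and 47.9% of TRBJ2-4. TRBJ2-7, the most used J segment, was nearly constant over mice at 57.6%, 57.0% and 56.3%, while its single samples ranged from 52.6% to 65.1%. Among templates with either stretch, which is no independent reading, ACTGGG was in 51.5% for TRBJ2-2 and in 59.6% to 68.2% for the others of TRBJ2-1 to TRBJ2-7. TRBJ1-7 had 1 D2 and 3 unresolved templates and TRBJ2-6, a pseudogene in the RefSeq table, had 2 D1 templates.

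**Figure D2:**
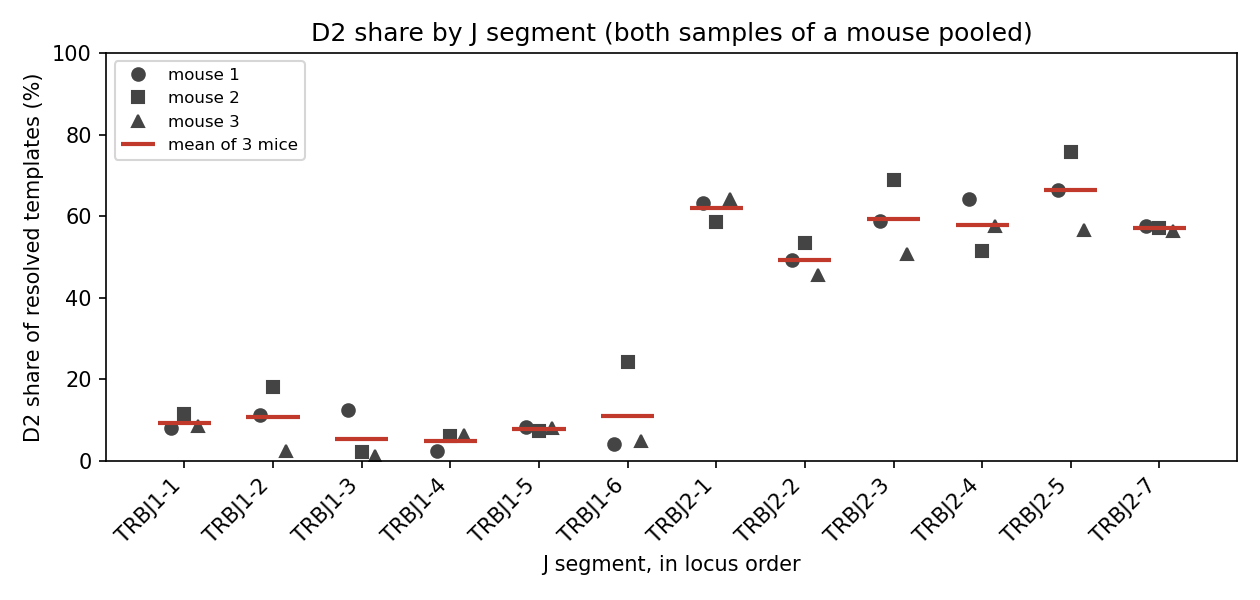
D2 share of resolved templates in percent for each J segment with 50 or more resolved templates, in locus order from TRBJ1-1 to TRBJ2-7; points are the 3 mice and red lines their means. Means step from 11.0% or less in TRBJ1 to 49.4% or more in TRBJ2.

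V segments differed in the D segment they were joined to within TRBJ2, where both D segments are available. Of 19 V segments with 50 or more resolved TRBJ2 templates, the D2 share ranged from 40.1% to 78.5% with a median of 57.4%. TRBV31 had the highest share. It lies downstream of the J clusters, at 41557693 to 41558371 on chromosome 6 (mm10), and joins by inversion. Its D2 share was 75.0%, 78.4% and 81.1% in mice 1, 2 and 3 (78.2% ± 3.07, SD, n = 3), with 113 D2 and 31 D1 templates. Single samples of TRBV31 ranged from 64.0% to 94.4%, and all 6 lay above the 58.2% of all TRBJ2 templates.

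TRBV26 had the lowest share, 38.0%, 40.0% and 43.5% in mice 1, 2 and 3 (40.5% ± 2.76, n = 3), with 61 D2 and 91 D1 templates. Its samples varied more than its mice, from 26.3% in the inferior sample of mouse 2 to 61.9% in the superior sample of mouse 1. The difference between TRBV31 and TRBV26 was 37.7 ± 0.730 points over mice, with both samples of a mouse pooled. TRBV31 was the higher in every sample, but the gap was far less even there. The shares were 64.0% and 56.25% in the superior sample of mouse 2, and 94.4% and 33.3% in that of mouse 3. With each rearrangement counted once the difference over mice was 43.0 ± 9.88. These segments were chosen for their shares, so no test is given.

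TRBV4 and TRBV12-1 followed TRBV31, with 77.1% ± 18.7 and 70.2% ± 6.12, and both were above the rest of TRBJ2 in 3 of 3 mice, as was TRBV13-2 with 64.2% ± 8.94. Not every single sample had this order. In the superior samples of mice 2 and 3, TRBV13-2 had 50.5% and 46.5%, against 56.2% and 56.5% of all TRBJ2 templates. TRBV4 had 25.0% in that of mouse 3, and TRBV12-1 had 50.0% in the inferior sample of mouse 1, against 56.8%. The other samples of these segments lay above. TRBV3 and TRBV26 were below the rest in 3 of 3 mice. TRBV3 had 38.1%, 41.1% and 52.8%, and with each rearrangement counted once its pooled share was 52.8% instead of 45.6%. TRBV29 had 12.5%, 33.3% and 67.6% on 73 resolved templates, so its low pooled share of 42.5% did not hold in mouse 3.

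Other frequent V segments lay nearer to the middle and varied between mice. TRBV2 had 59.8%, 80.4% and 52.9%, the high value in mouse 2, where 45 of its D2 templates came from the printed rearrangement with a run of 5 G. TRBV5 had 58.7% ± 15.9, TRBV19 56.9% ± 8.72, TRBV16 58.6% ± 7.71, TRBV20 54.6% ± 5.44, TRBV1 59.2% ± 14.7 and TRBV15 54.7% ± 15.6 (SD, n = 3 mice each). TRBV13-3 spread most among the frequent ones, at 87.2%, 27.6% and 66.0% in mice 1, 2 and 3. Over the 19 segments the SD over mice had a median of 14.3 points, and 11 of 19 had a 95% interval that held the share of all TRBJ2 templates.

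**Figure D3:**
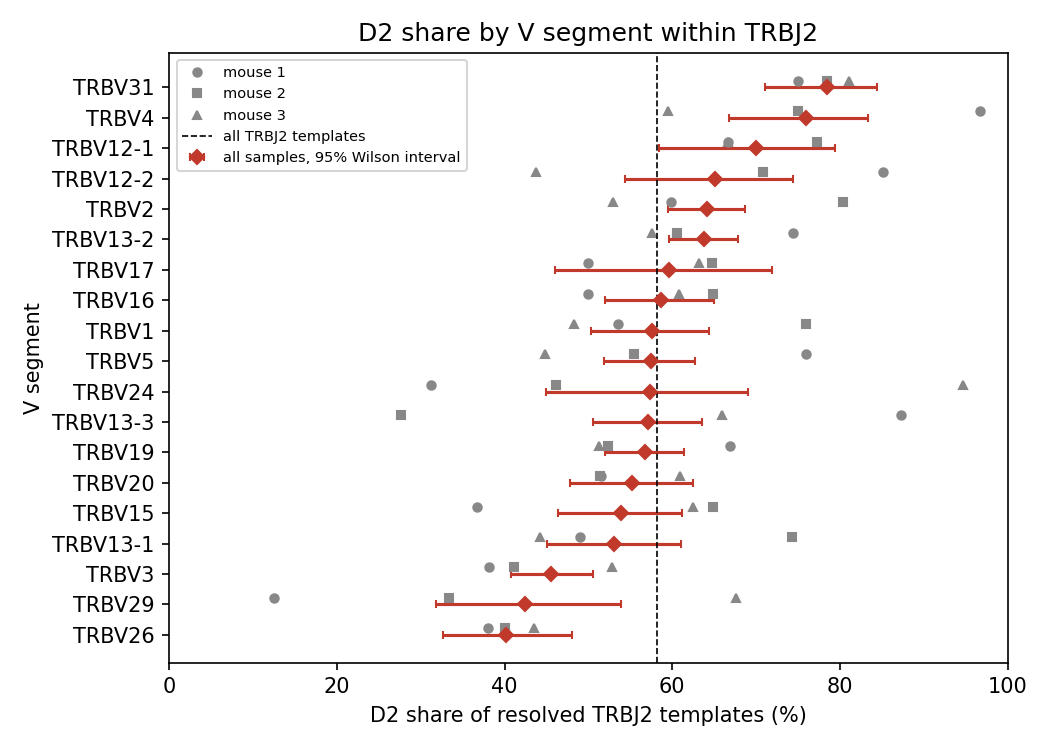
D2 share of resolved TRBJ2 templates in percent for the 19 V segments with 50 or more such templates; diamonds with bars are all samples with 95% Wilson intervals, grey points the 3 mice and the dashed line the 58.2% of all TRBJ2 templates. TRBV31 at 78.5% and TRBV26 at 40.1% mark the ends, and in both the mice, with their samples pooled, lie close together.

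D was left unresolved more often in TRBJ1 than in TRBJ2. The unresolved share was 27.2%, 25.1% and 23.6% in TRBJ1 and 15.5%, 15.5% and 17.3% in TRBJ2 in mice 1, 2 and 3. The difference, TRBJ2 minus TRBJ1, was -9.21 ± 2.68 points (SD, n = 3, two-sided exact sign-flip permutation p = 0.25, the smallest possible), and TRBJ1 was higher in 6 of 6 samples. It was -4.87 ± 4.05 in the superior and -11.9 ± 5.51 in the inferior samples, and the difference between these had a two-sided exact permutation p of 0.3 (n = 3 each). In the superior sample of mouse 1 the clusters were close, at 15.6% (95% interval 11.2 to 21.3) in TRBJ1 and 15.4% (12.4 to 18.9) in TRBJ2. In the inferior sample of the same mouse they were 32.7% (28.4 to 37.3) and 15.5% (13.4 to 17.9). Among segments with 50 or more resolved templates, TRBJ1-4 had the highest mean over mice, 30.6% ± 6.49. The lowest mean was 11.2% ± 2.23 for TRBJ2-7, and TRBJ2-2, with 28.3% ± 10.4, had the highest mean of its cluster. These ranks did not hold in every mouse. TRBJ1-4 had 38.1%, 27.01% and 26.8% in mice 1, 2 and 3. TRBJ1-6 was above it in mouse 2, with 31.25%, and TRBJ1-5 in mouse 3, with 32.2%. TRBJ2-2 led its cluster only in mouse 1. It was below the 23.02% of TRBJ2-4 in mouse 2, and had 24.9% against 25.9% of TRBJ2-5 in mouse 3. In mouse 2, TRBJ2-7 had 13.8% and TRBJ2-5 13.1%.

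Short CDR3s left D unresolved most often. CDR3 length and glycines are encoded partly by the D bases that the call uses, so the following values are descriptions without a test. Of templates with a CDR3 of 12 or fewer residues, 41.9%, 32.4% and 35.0% were unresolved in mice 1, 2 and 3 (36.4% ± 4.88). At 13 or 14 residues the share was 19.8% ± 0.692, and at 15 or more it was 6.14% ± 1.58 (SD, n = 3 mice each). Single samples reached 25.5% to 49.5% in the shortest class and 4.17% to 7.91% in the longest, without overlap. The inferior and superior samples of mouse 1 were the highest and the lowest of the shortest class.

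By single lengths, over all samples, 172 of 356 templates of 11 residues were unresolved, 48.3% (95% interval 43.2 to 53.5). The share fell to 27.9% at 12, 23.5% at 13, 16.7% at 14, 7.71% at 15 and 3.51% at 16 residues, and it was 0 of 95 at 17, which allows up to 3.16%. At 11 residues TRBJ1 had 64.2% (55.4 to 72.1) and TRBJ2 39.9% (33.8 to 46.3), and at 15 residues they had 14.5% (11.4 to 18.2) and 4.95% (3.78 to 6.45). Pooled over samples, TRBJ1 stood above TRBJ2 at each length from 11 to 16 residues, and at 11, 13, 14 and 15 residues it did so in 3 of 3 mice. At 12 residues the pooled gap came from mouse 1, with 53.8% in TRBJ1 and 26.4% in TRBJ2, while mouse 2 had 26.2% and 25.9% and mouse 3 had 25.0% and 26.8%. At 16 residues mouse 2 had 0% in TRBJ1, of few templates, and 2.38% in TRBJ2. TRBJ2-7 had the shortest mean CDR3 of the TRBJ2 segments, 13.4 residues, and still the lowest mean unresolved share over mice.

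**Figure D4:**
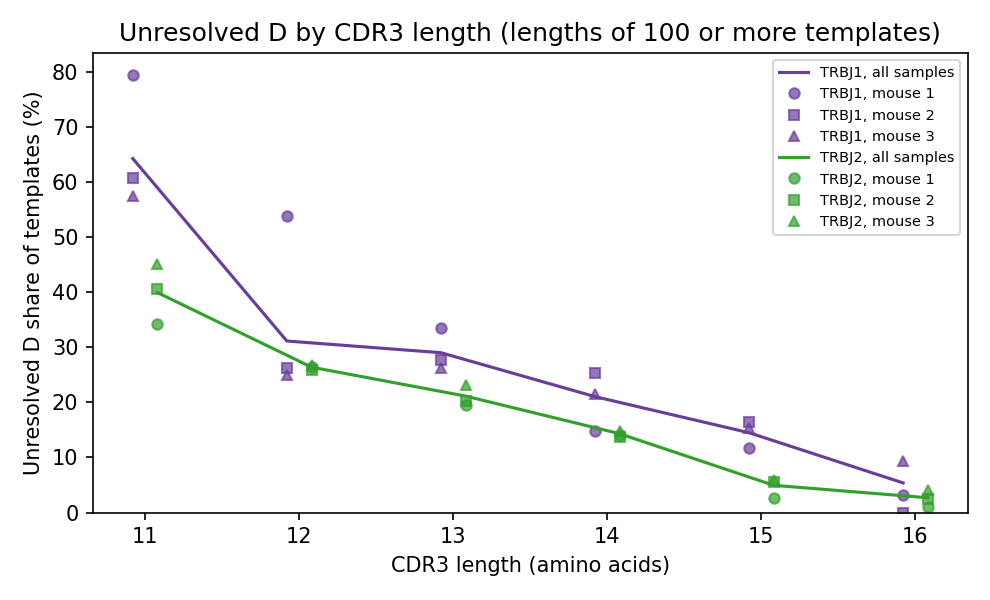
Unresolved share of templates in percent against CDR3 length in amino acids, for TRBJ1 (purple) and TRBJ2 (green); lines are all samples and points the 3 mice, at lengths of 100 or more templates per cluster. The lines go down from 64.2% and 39.9% at 11 residues to 5.38% and 2.69% at 16.

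D2 rearrangements had longer CDR3s than D1 rearrangements in TRBJ2. There the mean length was 14.2, 14.3 and 14.3 residues for D2 and 13.3, 13.3 and 13.5 for D1 in mice 1, 2 and 3, a difference of 0.859 ± 0.0903 residues (SD, n = 3). The 6 samples ranged from 14.1 to 14.4 for D2 and from 13.1 to 13.6 for D1, without overlap. In TRBJ1 the order over mice was turned, with 13.6 ± 0.154 for D2 and 13.9 ± 0.0913 for D1, a difference of -0.299 ± 0.0670. This rests on 116 D2 templates, and single samples overlapped, from 13.33 to 14.08 for D2 and from 13.75 to 14.05 for D1. D2 was the longer in the superior sample of mouse 3 (13.83 against 13.75) and the inferior sample of mouse 2 (14.08 against 13.85). Unresolved CDR3s were the shortest in both, with 12.8 ± 0.0344 in TRBJ2 and 13.01 ± 0.297 in TRBJ1. Over both clusters, 43.5% ± 5.39 of D2 templates, 24.8% ± 1.10 of D1 and 9.44% ± 2.75 of unresolved templates had 15 or more residues.

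Seen from the length, the D2 share of resolved TRBJ2 templates rose from 25.0% at 11 residues to 39.3% at 12, 48.0% at 13, 56.9% at 14, 74.6% at 15 and 80.6% at 16. In TRBJ1 it moved between 4.55% and 10.7% over the same lengths. It was 4.55% at 11 residues, 2 of 44 resolved templates (Wilson interval 1.26 to 15.1). At 16 residues it was 5.69%, 7 of 123 (2.78 to 11.3). The TRBJ1 share thus showed no rise of as many percentage points as in TRBJ2, but its ends rest on few D2 templates. A smaller trend in TRBJ1 and the difference of the trends were not tested.

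D2 CDR3s held more glycine, the small residue that makes loops flexible. In TRBJ2 a D2 CDR3 had 2.03, 2.04 and 2.05 glycines in mice 1, 2 and 3, and a D1 CDR3 had 1.35, 1.19 and 1.29, a difference of 0.768 ± 0.0844 (SD, n = 3). Sample means ranged from 1.84 to 2.15 for D2 and from 1.16 to 1.38 for D1, without overlap. Unresolved CDR3s had 1.10 ± 0.0939. The excess was present at equal length, with 1.83 glycines for D2 and 1.10 for D1 at 13 residues, 1.98 and 1.48 at 14, and 2.15 and 1.62 at 15. In TRBJ1 the difference was 0.268 ± 0.569 and its sign was negative in mouse 2.

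**Figure D5:**
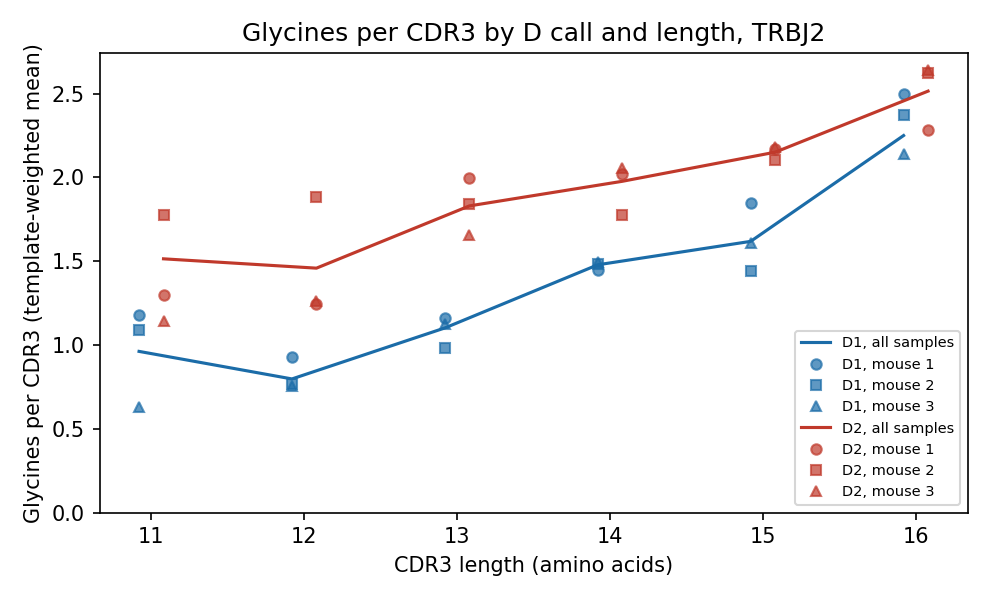
Mean number of glycines per CDR3, weighted by templates, against CDR3 length in amino acids for D1 (blue) and D2 (red) rearrangements of TRBJ2; lines are all samples and points the 3 mice, at lengths of 100 or more templates. The D2 line lies above the D1 line at each length from 11 to 16 residues, but at 16 residues mouse 1 had the opposite order.

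Other residues of the loop centre, taken as the CDR3 without its first 4 and last 5 residues, also differed by D call in TRBJ2. Glycine made up 33.2% ± 0.407 of centre residues for D2, 22.1% ± 1.76 for D1 and 20.1% for unresolved templates (SD, n = 3 mice). Tryptophan, a bulky aromatic residue, made up 6.42% ± 0.0765 for D2 and 0.699% ± 0.126 for D1, and leucine 8.83% ± 0.229 and 5.20% ± 2.20. D1 centres had more glutamine, 11.1% ± 1.67 against 5.70% ± 0.705, and more arginine, 9.91% ± 0.782 against 4.17% ± 0.389. Threonine was 7.78% ± 0.690 for D1 and 6.01% ± 0.706 for D2. In TRBJ1, D2 centres held 1.78% ± 1.68 tryptophan and D1 centres 0.529% ± 0.166. The D2 value rests on 537 centre residues, with 3.68%, 0.503% and 1.14% in mice 1, 2 and 3.

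The residue patterns listed for the reading frames of each D segment separated in the same way. Of D2 templates with TRBJ2, 17.1% held DWG (399 of 2339), 10.4% GLG and 4.02% RLG, against 0.0599%, 0.359% and 0% of D1 templates with TRBJ2. Of D1 templates with TRBJ2, 6.59% held GQG, 7.13% DRG, 2.34% RQG and 2.51% DRD, against 0%, 0.641%, 0% and 0.299% of D2. TGG and GTG, listed for the frame that both D segments share, were held by 11.7% and 9.32% of D2 and by 5.63% and 6.89% of D1 templates. DWD was rare, at 0.470% of D2 and 0.120% of D1 templates. In D1 templates with TRBJ1, GQG was in 8.88%, RQG in 5.02%, DRG in 4.44% and DRD in 1.61%. Of the 116 D2 templates with TRBJ1 that entered this count, 1.72% held DWG and 0.862% GLG.

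The D2 and unresolved shares of superior and inferior samples overlapped, and no combination of D class and J segment passed the adjusted threshold. The D2 share of resolved templates was 48.9%, 45.01% and 41.2% in the superior and 44.3%, 47.6% and 38.1% in the inferior samples of mice 1, 2 and 3, and the groups overlapped. The means were 45.1% ± 3.85 and 43.3% ± 4.81 (SD, n = 3 each, difference 1.71 points, two-sided exact permutation p = 0.6, where 0.1 is the smallest possible). In TRBJ2 the difference was 0.810 points (exact permutation p = 0.7), which turned to -3.33 without mouse 1 and was 4.87 without mouse 2. In TRBJ1 it was 2.28 points (exact permutation p = 0.5), and 0.0817 without mouse 2. Over all templates it was 0.243 without mouse 1 and 3.87 without mouse 2.

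The unresolved share was 15.4%, 18.6% and 21.2% in superior and 20.7%, 18.0% and 18.4% in inferior samples, a difference of -0.641 points (exact permutation p = 1) that turned to 1.68 without mouse 1. Across all 36 combinations of D class and J segment with 10 or more templates, edgeR's quasi-likelihood test called 0 at an adjusted p below 0.05, a percentage of 0, with 4 at an unadjusted p below 0.05. DESeq2 called 0, with 1 at an unadjusted p below 0.05. The lowest p in edgeR was that of D1 with TRBJ1-5, with 2.17% ± 0.242 of templates in the superior group and 3.55% ± 0.252 in the inferior group (n = 3 mice each, SD). Its log2 superior over inferior was -0.72 (SE 0.20, edgeR adjusted p = 0.235), with the lower share on the superior side in 3 of 3 mice. D1 with TRBJ1-6, at 0.848% ± 0.0865 and 1.53% ± 0.126, had -0.82 (SE 0.25, edgeR adjusted p = 0.235), also lower in 3 of 3 mice. The others were unresolved D with TRBJ1-4 at -0.83 (SE 0.29) and with TRBJ1-1 at -0.77 (SE 0.30), with edgeR adjusted p of 0.259 and 0.325. The same direction in 3 of 3 mice was not particular to these combinations. D1 and D2 with TRBJ1-1, for example, were both higher on the superior side in 3 of 3 mice (edgeR adjusted p = 0.659 each).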

How the data were processed

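Splenic Tfr genomic DNA was amplified and sequenced by the immunoSEQ assay for mouse TCRB (survey depth), per the labels' protocols. The genome build was mm10, per the submitters' processing notes. The deposited count per distinct 87-base rearrangement is a whole number, and whether molecules or reads were counted is not stated in them. The deposited productive frequency is a fraction that equals the count divided by the sample's sum, and it was not used further. For the D caller and its thresholds: not given in the sources used here.

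Counts were summed by D call, J cluster, V segment and CDR3 length. CDR3 features left out 41 rearrangements (48 templates) whose CDR3 did not start with cysteine, and 7 templates with no J segment stayed in cluster sums only. All 29 V names matched RefSeq symbols. Superior and inferior samples were compared with two-sided exact permutation tests and with edgeR 4.0.16 in R 4.3.3 (quasi-likelihood, common dispersion, total templates as library size, Benjamini-Hochberg), tested on simulated data, with DESeq2 1.42.0 as an alternative. J clusters were compared by sign-flip tests over mice. The exact tests ran in scipy 1.17.1 under Python 3.11.15.

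Both samples of a mouse come from the same animal, so the mouse number pairs them. Deviations from group means over 36 combinations correlated at 0.419, 0.0624 and 0.143 in mice 1, 2 and 3. Members, lists and tests were chosen with earlier results of these data known. The rule for named items took every J segment with 50 or more resolved templates, the 12 V segments with most resolved templates, the 3 highest and 3 lowest in D2 share, and the 3 most abundant rearrangements per class.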

Additional observations from a re-analysis of the deposited data

How the results depend on the processing

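Of 93 alternative values for 13 results, 79 kept their direction and their side of the threshold, or moved by less than the spread over mice. The D2 difference between clusters stayed between 50.3 and 52.4 points under the 9 alternatives that keep the deposited D call. With D read from the 6-base stretches it was 64.4, and the superior minus inferior difference in TRBJ1 was 0, but the stretches were picked with the call and these values are no support, although both are among the 79. The unresolved share, TRBJ2 minus TRBJ1, stayed between -11.9 and -4.87. With each rearrangement counted once, the difference between superior and inferior samples turned to -0.0903 points for the D2 share and to -0.610 in TRBJ2. With D read from the 6-base stretches, chosen after seeing the data, it was -2.40 and -3.92. Without rearrangements of 5 or more templates the unresolved difference was 0.660. Leaving out 1 mouse gave -3.33 to 4.87 for the D2 share in TRBJ2 and -2.35 to 1.68 for the unresolved share. The difference in CDR3 length, D2 minus D1, was 0.859 within TRBJ2 and -0.299 within TRBJ1. That in glycines was 0.706 with each rearrangement counted once, 0.768 within TRBJ2 and 0.268 within TRBJ1. TRBV31 minus TRBV26 was 43.0 ± 9.88 with each rearrangement counted once and 39.5 ± 28.7 from the stretches (SD, n = 3 mice). The cause of these changes was not tested. With the replicate block (mouse), the paired exact sign-flip permutation p was 0.5 for the D2 share, 0.75 in TRBJ2, 0.5 in TRBJ1 and 1 for the unresolved share, at the same differences of 1.71, 0.810, 2.28 and -0.641, and edgeR called 0 combinations. With 3 mice neither the paired nor the unpaired exact test can pass 0.05, so for the shares this says nothing of stability. Over all its alternatives edgeR or DESeq2 called 0, with lowest adjusted p of 0.166 to 0.876.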

Other observations

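With samples pooled per mouse, D1 rearrangements had more templates each than D2 rearrangements in 3 of 3 mice, without overlap and not tested. Single samples overlapped, from 1.48 to 1.78 for D1 and from 1.48 to 1.61 for D2. D1 rearrangements had 1.65 ± 0.00688, D2 1.56 ± 0.0301 and unresolved 1.54 ± 0.0484 templates each (SD, n = 3 mice), and within TRBJ2 D1 had 1.74 ± 0.0630 and D2 1.57 ± 0.0395. Within TRBJ1 the order was turned in mouse 1, with 1.51 for D1 and 1.52 for D2, but not in mice 2 and 3. Of D1, D2 and unresolved rearrangements 3.32%, 2.40% and 2.88% had 5 or more. Over the mice, 68 of 1889 D1 rearrangements (3.60%, 95% Wilson interval 2.85 to 4.54), 55 of 1529 D2 (3.60%, 2.77 to 4.65) and 39 of 829 unresolved ones (4.70%, 3.46 to 6.37) were listed in both samples of a mouse. D2 ranged from 2.49% in mouse 3 to 6.22% in mouse 2. Few were listed in more than 1 mouse: 2 of 1887 D1, 4 of 1525 D2 and 3 of 826 unresolved rearrangements.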
